A study of Solanum lycopersicum with 8 samples.

Results

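In tomato leaves, 53 of 8404 probe sets (0.631%) gave clearly higher signals at 12 h than at 6 h after spraying in every comparison that the experiment allowed. They were chosen by the deposited values themselves: each had a 12 h minus 6 h difference of at least 1.3 on the log2 scale in all 4 pairs of arrays that shared a treatment and a repeat number, namely water in repeat 1, water in repeat 2, and likewise for the treated plants. A probe set is a group of short DNA probes that together read out 1 transcript. Only 6 of the 53 carried a gene symbol, which were LePCL1, GBF12, Psy1, TBG3, eIF-5A1 and LOC778326. The other 47 are known here by their probe set identifiers. The share with a symbol was 11.3% among the 53 and 8.96% among all 8404.

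The study compared tomato plants (Solanum lycopersicum, cultivar Summer sweet) sprayed until run-off with water or with NPA, a neutralized solution of phosphorous acid. It held 1 g phosphorous acid per litre and was brought to pH 6.3 with 1 g potassium hydroxide. Leaves were taken at 6 h and at 12 h, so there were 4 groups: water at 6 h, NPA at 6 h, water at 12 h and NPA at 12 h. Each group had 2 Affymetrix Tomato Genome arrays, each hybridised with RNA pooled from 5 plants, and the complete set was run in 2 repeats. All plants grew at 27 °C with a 12 h photoperiod, no unsprayed plants were analysed here, and the labels give no leaf position, plant age or clock time of spraying. Hours since spraying and hour of the day therefore cannot be told apart in any difference between 6 h and 12 h.

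The array values were log2 signals, with array medians of 8.77 to 8.83, and the number of arrays limits their precision. Arrays of the same group correlated at 0.968 to 0.987. The labelled tissue was looked at through the leaf genes CAB4, CAB5, CAB6A and PSBO (light harvesting and photosystem), whose mean signal was 13.9 to 13.95 at 6 h and 11.3 to 11.9 at 12 h. Of these 4 genes, 3 passed the limma test for a fall from 6 h to 12 h in each treatment. Mean signals of the glandular trichome, flower and fruit, and root genes on the array lay at 4.96 to 6.4 (2 genes), 6.83 to 8.78 (2 genes) and 7.92 to 9.01 (3 genes). Levels of different probe sets cannot be set against each other, so these values do not grade the tissue. Of these 7 genes, TDR6, a flower and fruit MADS-box gene, rose in NPA plants by 2.24 (limma adjusted p = 0.00663) and MTS1, a trichome terpene synthase, fell by 1.87 in NPA plants (limma adjusted p = 0.0136, or 0.0533 without the first NPA array at 12 h). Their part in the results below was not tested. In leaf RNA, fewer cells of a type and less RNA per cell cannot be told apart.

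Many leaf genes follow the day. The circadian clock is a loop of transcription factors that repress each other at different hours, and it works together with light receptors and with factors that bind light-responsive promoter elements. Carotenoid synthesis, cell wall remodelling and translation are among the processes that clock and light signals are known to modulate in plants.

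All 53 were ordered the same way, with every 6 h array below every 12 h array, an order that the rule favours but does not require. Their mean change over the 4 pairs ran from 1.465 to 5.385 on the log2 scale with a median of 2.105. Of the 53, 23 changed by less than 2, 21 by 2 to less than 3, 4 by 3 to less than 4, and 5 by 4 or more. The median signal of the 53 was 7.05 and 7.99 on the water arrays at 6 h, 6.96 and 7.76 on the NPA arrays at 6 h, 9.94 and 10.07 on the water arrays at 12 h, and 9.31 and 9.86 on the NPA arrays at 12 h. Values here and below are given in the order repeat 1, repeat 2. The limma test across all 8404 probe sets, adjusted by the Benjamini-Hochberg method, called 49 of the 53 higher at 12 h in water plants, against 11.7% of all probe sets, and 49 of the 53 in NPA plants, against 14.2%. These are the contrasts that chose the 53, so nothing is read from the counts.

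**Figure D1:**
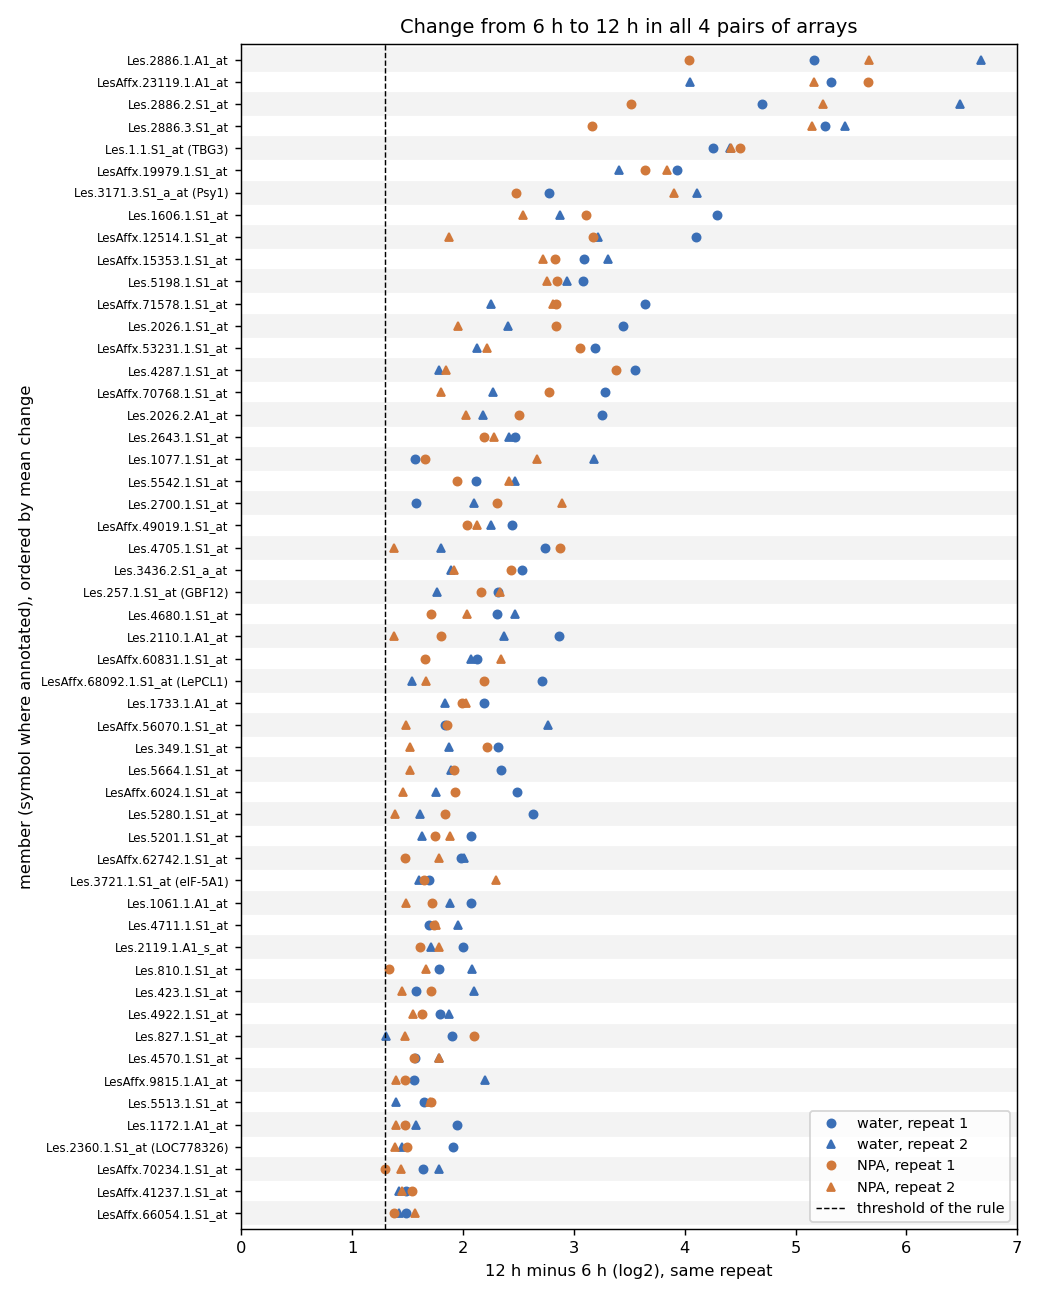
The 12 h minus 6 h change (log2) of each of the 53 probe sets in each of the 4 same-repeat pairs, ordered by mean change, with the rule's threshold of 1.3 drawn as a line. Most changes lie between 1.3 and 3, and 5 probe sets stand at a mean of 4 or more.

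LePCL1 and GBF12 were the 2 transcription factor genes with a symbol. LePCL1 is named like Arabidopsis PCL1 (LUX), a clock transcription factor of the evening complex that represses morning genes. Its signal was 6.44 and 7.60 in water at 6 h, 6.47 and 7.28 in NPA at 6 h, 9.15 and 9.14 in water at 12 h, and 8.66 and 8.95 in NPA at 12 h. The treatments overlapped at 6 h, where the 2 repeats lay far apart, and both NPA arrays lay below both water arrays at 12 h. The change was 2.125 in water (4.36-fold) and 1.93 in NPA (3.81-fold). GBF12 is a bZIP protein of the G-box binding factor family, which binds a light-responsive promoter element. It gave 8.16 and 8.85 in water at 6 h, 8.10 and 8.40 in NPA at 6 h, 10.48 and 10.62 in water at 12 h, and 10.26 and 10.73 in NPA at 12 h. Its change was 2.045 in water (4.13-fold) and 2.245 in NPA (4.74-fold), and NPA and water arrays overlapped at both times. The related gene GBF4, measured by 2 probe sets, passed no test: its 12 h minus 6 h differences were 0.26 and 0.275 in water (limma adjusted p = 0.194 and 0.25) and 0.32 and 0.335 in NPA (limma adjusted p = 0.117 and 0.164).

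Psy1 encodes phytoene synthase, which makes the first dedicated intermediate of carotenoids. In tomato this gene is known for its part in fruit colour, while PSY2 is the form usually linked to green tissue. The Psy1 probe set among the 53 gave 7.20 and 6.32 in water at 6 h, 7.41 and 6.65 in NPA at 6 h, 9.98 and 10.43 in water at 12 h, and 9.89 and 10.55 in NPA at 12 h. The second repeat started lower and ended higher than the first in both treatments. The change was 3.445 in water (10.9-fold) and 3.19 in NPA (9.13-fold). Another Psy1 probe set, Les.44.1.S1_at, disagreed. It gave 5.87 and 6.07 in water at 6 h, 5.89 and 6.19 in water at 12 h, 5.46 and 5.74 in NPA at 6 h, and 6.49 and 6.59 in NPA at 12 h. Its difference between the times was 0.07 in water (SE 0.16, limma adjusted p = 0.793), and it rose by 0.94 in NPA (limma adjusted p = 0.0106), a call lost without the first NPA array at 6 h or the second at 12 h (adjusted p up to 0.0558). Which of the 2 probe sets reads the Psy1 transcript better was not tested. PSY2 differed by -0.145 in water (limma adjusted p = 0.482) and by 0.455 in NPA (limma adjusted p = 0.054, or 0.0348 with the repeat as a block).

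TBG3, a beta-galactosidase that removes galactose from cell wall polysaccharides, had the largest change among the 6 named genes. It gave 7.96 and 8.97 in water at 6 h, 7.72 and 8.63 in NPA at 6 h, 12.22 and 13.38 in water at 12 h, and 12.22 and 13.05 in NPA at 12 h. The second repeat was higher in every group, yet the 4 changes were close together at 4.26 and 4.41 in water and 4.5 and 4.42 in NPA. These amount to 20.2-fold in water and 22.0-fold in NPA. The other 6 TBG genes on the array did not share this pattern. TBG7 fell by 1.14 in water (limma adjusted p = 0.00705) and fell by 1.185 in NPA (limma adjusted p = 0.00568), and TBG6 fell by 1.025 (adjusted p = 0.0244) and fell by 0.88 (adjusted p = 0.0346). TBG5 fell in water by 0.865 (limma adjusted p = 0.0142) and differed by 0.17 in NPA (adjusted p = 0.471), whereas TBG4 differed by 0.015 in water (adjusted p = 0.981) and rose by 1.385 in NPA (limma adjusted p = 0.022). TBG1 gave 0.135 and 0.31 and TBG2 gave 0.295 and 0.74 in water and NPA, with limma adjusted p from 0.0988 to 0.51 (0.0261 for TBG2 in NPA with the repeat as a block). Most of these calls were lost in some fits without 1 array. The TBG6 calls were lost in 4 of 8 in water (any of the 4 water arrays) and 7 of 8 in NPA (any array but the second NPA array at 12 h). The TBG5 and TBG4 calls were lost in 3 each, and the TBG7 call in water in 1 (the first water array at 6 h). Such a fit leaves 1 array in a group, so a lost call does not show that 1 array carried it. With the repeat as a block, limma adjusted p was 0.009 and 0.013 for TBG6 in water and NPA. In that fit it was 0.01 for TBG5 in water and 0.0052 for TBG4 in NPA.

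eIF-5A1 encodes a form of eIF-5A, a translation factor that carries the modified amino acid hypusine. It was the brightest of the named genes at 6 h, with 10.46 and 10.21 in water and 9.99 and 9.79 in NPA, and it reached 12.15 and 11.81 in water and 11.64 and 12.09 in NPA at 12 h. The change was 1.645 in water (3.13-fold) and 1.975 in NPA (3.93-fold), the larger NPA value coming from repeat 2 (2.30, against 1.6 to 1.69 in the other 3 pairs). None of the 3 other eIF-5A genes passed the test. In water and NPA, eIF-5A2 gave 0.06 and -0.165 (limma adjusted p = 0.784 and 0.409), eIF-5A3 0.295 and 0.12 (0.258 and 0.639), and eIF-5A4 0.11 and 0.045 (0.519 and 0.798). LOC778326, for which no role is given here, gave 8.53 and 8.82 in water at 6 h, 8.81 and 8.60 in NPA at 6 h, 10.44 and 10.27 in water at 12 h, and 10.31 and 9.99 in NPA at 12 h. Its change was 1.68 in water (3.20-fold) and 1.445 in NPA (2.72-fold), among the smaller of the 53.

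**Figure D2:**
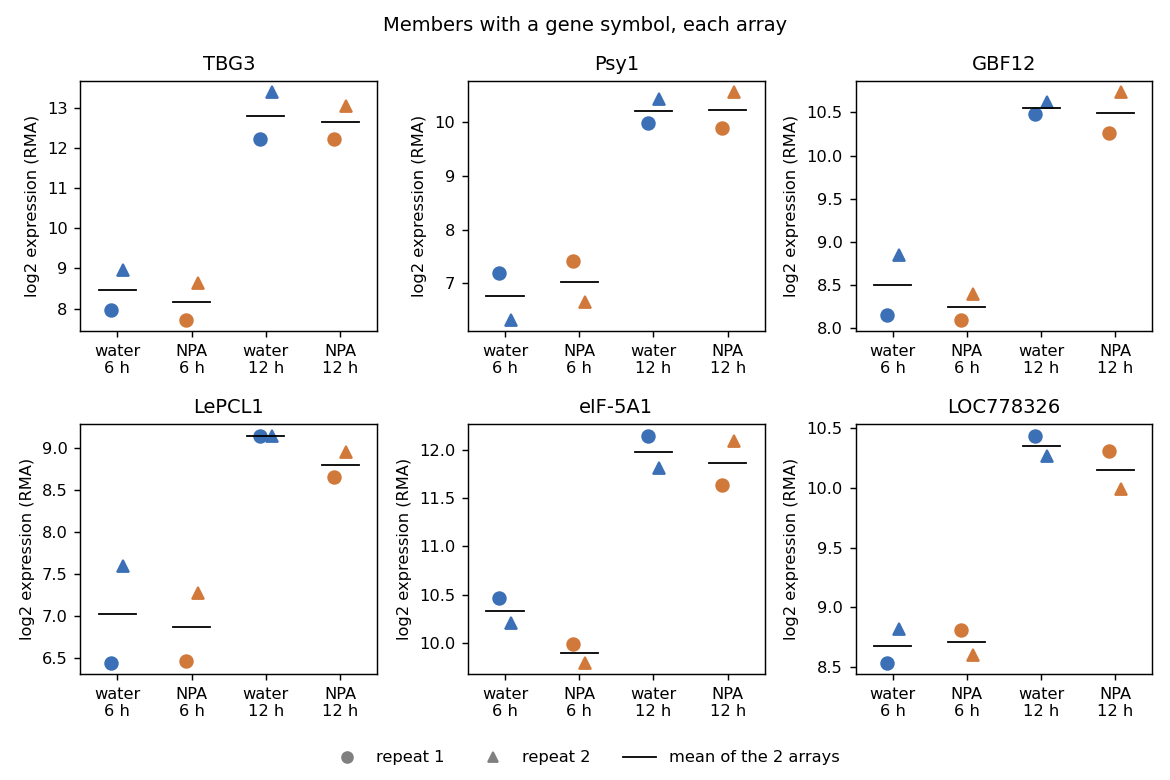
Deposited log2 signal on each of the 8 arrays for the 6 genes with a symbol, with points for single arrays (2 per group) by treatment and time. In each gene every 12 h point lies above every 6 h point, and water and NPA points of the same time lie near each other.

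Among the 47 without a symbol, the largest mean changes belonged to Les.2886.1.A1_at and LesAffx.23119.1.A1_at. Les.2886.1.A1_at gave 4.82 and 4.41 in water at 6 h, 4.98 and 4.72 in NPA at 6 h, 9.99 and 11.08 in water at 12 h, and 9.02 and 10.38 in NPA at 12 h. Its change was 5.92 in water and 4.85 in NPA. The 6 h signals lie at the dim end of the array and no detection calls were used, so no fold is given. LesAffx.23119.1.A1_at gave 6.83 and 8.61 in water at 6 h, 6.32 and 7.19 in NPA at 6 h, 12.15 and 12.66 in water at 12 h, and 11.97 and 12.36 in NPA at 12 h. Its change was 4.685 in water (25.7-fold) and 5.41 in NPA (42.5-fold). Its water and NPA arrays overlapped at both times, and its 6 h water arrays differed between the repeats by more than 1 on this scale.

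The 53 probe sets came from 50 identifier clusters, where a cluster is the set of probe sets whose names share the number after the prefix. Les.2886 contributed 3 probe sets, and all 3 probe sets of that cluster on the array were among the 53. Les.2886.2.S1_at gave 4.23 and 3.82 in water and 4.30 and 4.07 in NPA at 6 h, and 8.93 and 10.30 in water and 7.82 and 9.32 in NPA at 12 h. Les.2886.3.S1_at was dimmer at 6 h (3.25 and 4.09 in water, 4.16 and 3.54 in NPA) and reached 8.52 and 9.54 in water and 7.32 and 8.69 in NPA. The 3 profiles resemble each other, and as probe sets of 1 cluster they may read the same transcript. Both probe sets of Les.2026 were also included, with changes of 3.44, 2.41, 2.84 and 1.96 for Les.2026.1.S1_at and of 3.25, 2.18, 2.51 and 2.03 for Les.2026.2.A1_at in water repeats 1 and 2 and NPA repeats 1 and 2.

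Partners of other included probe sets were not among the 53, and some differed from them in direction. LesAffx.23119.1.S1_at, whose identifier differs from that of the large riser only in its suffix, fell by 1.03 in water (SE 0.14, limma adjusted p = 0.00546) and fell by 0.855 in NPA (limma adjusted p = 0.00826), and no single array decided either call. Its signals were low, at 5.38 to 5.64 at 6 h and 4.4 to 4.59 at 12 h, and no detection calls were used. Les.4287.2.S1_at gave changes of 0.03 and 0.14 in water and -0.18 and -0.30 in NPA, while Les.4287.1.S1_at gave 3.55 and 1.78 in water and 3.38 and 1.85 in NPA. LesAffx.6024.1.A1_at rose by 1.04 in water (limma adjusted p = 0.0232) and by 0.97 in NPA (limma adjusted p = 0.0254), below the rule's threshold, and each call was lost in 3 of the 8 fits without 1 array. LesAffx.9815.1.S1_at rose by 1.625 in water (limma adjusted p = 0.0228), also lost in 3 of 8, and differed by 0.695 in NPA (adjusted p = 0.193, or 0.0368 with the repeat as a block). The signals of LesAffx.6024.1.A1_at were also low, at 4.23 to 5.86. Of the 53 identifiers, 9 (17.0%) carried an A1 tag, against 18.5% of all tested. Whether partners with A1 and S1 tags read the same transcript or the same strand was not tested.

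The treatment comparison asks whether NPA altered the signals of these 53. limma called none of them at an adjusted p under 0.05. For NPA minus water at 6 h the count was 0 of 53 (0.167% of all probe sets called), at 12 h 0 of 53 (0.0119%), and averaged over both times 0 of 53 (0.0714%). At an unadjusted p under 0.05 there were 3 of 53 (5.66%) at 6 h against 15.7% of all probe sets, 3 (5.66%) at 12 h against 9.65%, and 2 (3.77%) for the average against 11.8%. The lowest adjusted p among the 53 was 0.304 at 6 h, 0.482 at 12 h and 0.338 for the average. With the repeat as a block the counts were also 0 of 53, with 1.29% of all probe sets called at 6 h, 0% at 12 h and 0.952% for the average, and lowest adjusted p among the 53 of 0.102, 0.191 and 0.0511. In that fit the unadjusted p was under 0.05 for 9 of the 53 (17%) at 6 h against 24.6% of all, for 9 (17%) at 12 h against 18.3%, and for 11 (20.8%) for the average against 20%. At 12 h and for the average the shares of the 53 were thus near those of all probe sets in this fit, unlike in the fit without the block. A p that misses the threshold does not show equal levels, and with 2 pools a group these p-values measure only the spread between the pools.

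No single gene passed the test of NPA against water. At 6 h NPA minus water was -0.145 for LePCL1 (SE 0.41, limma adjusted p = 0.912), -0.255 for GBF12 (SE 0.27, adjusted p = 0.725) and 0.27 for Psy1 (SE 0.40, adjusted p = 0.819). It was -0.29 for TBG3 (SE 0.55, limma adjusted p = 0.863), -0.445 for eIF-5A1 (SE 0.21, adjusted p = 0.37) and 0.03 for LOC778326 (SE 0.17, adjusted p = 0.963). Of the 6, eIF-5A1 had the lowest adjusted p in this fit, and both its NPA arrays lay below both its water arrays at 6 h. The spread in this fit includes the difference between the repeats. With the repeat as a block, limma adjusted p at 6 h was 0.19 for TBG3, 0.249 for eIF-5A1 and 0.348 for GBF12. In that fit it was 0.73 for Psy1, 0.79 for LePCL1 and 0.927 for LOC778326. At 12 h the differences were -0.34 for LePCL1, -0.055 for GBF12, 0.015 for Psy1, -0.165 for TBG3, -0.115 for eIF-5A1 and -0.205 for LOC778326, with limma adjusted p from 0.726 to 0.993. With the repeat as a block, limma adjusted p at 12 h ran from 0.4655 (TBG3) to 0.986 (Psy1). The 3 probe sets of Les.2886 showed larger differences at 12 h, of -0.835, -1.045 and -1.025 (limma adjusted p = 0.624, 0.60 and 0.594). LesAffx.12514.1.S1_at, also without a symbol, differed by -1.03 at 12 h (SE 0.33, limma adjusted p = 0.489). The lowest block value for the average was that of Les.2643.1.S1_at, also without a symbol. Its NPA minus water differences were -0.32 and -0.34 at 6 h and -0.6 and -0.48 at 12 h. For its average of -0.435, limma adjusted p was 0.588, or 0.0511 with the repeat as a block.

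**Figure D3:**
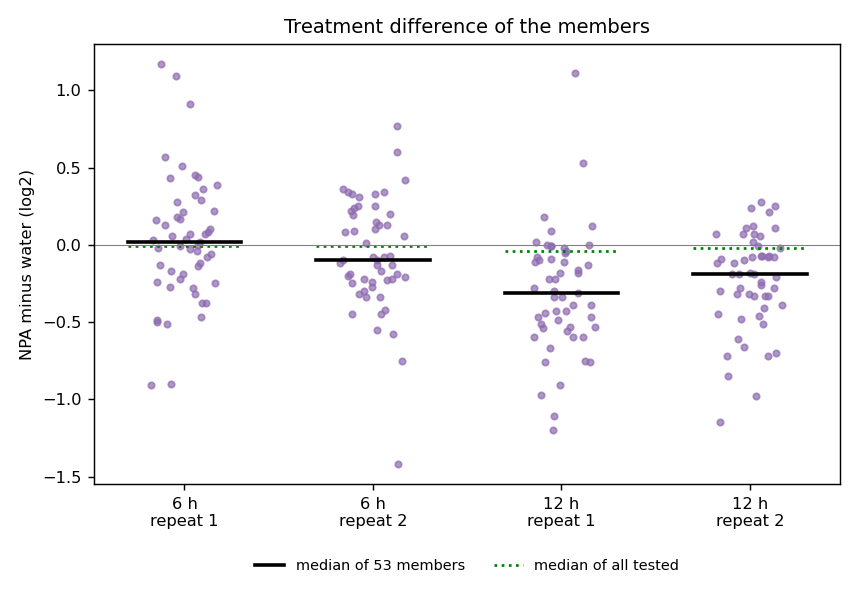
NPA minus water (log2) within each repeat at 6 h and at 12 h for the 53 probe sets, 1 point per probe set with the median of the 53 drawn. At 6 h the points scatter around 0 with medians of 0.02 and -0.10, and at 12 h most lie below 0 with medians of -0.31 and -0.19.

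As a group, the 53 tended to sit lower in NPA than in water at 12 h. The median NPA minus water difference at 12 h was -0.21, against -0.03 over all 8404 probe sets, and was -0.31 and -0.19 in repeats 1 and 2. Single differences ran from -1.045 to 0.30. At 12 h 33 of the 53 were below water in both repeats, against 37.9% of all probe sets, and 0 were above water in both, against 29.5%. At 6 h the median was 0.03 (0.02 and -0.10 by repeat), with single values from -0.965 to 0.93. At that time 21 were below water in both repeats (36.1% of all probe sets) and 18 above in both (33.4%). These counts describe the 53, which share transcripts and arrays, and carry no test. The 12 h median depended on the arrays, running from -0.45 to -0.02 when 1 array was left out. For comparison, the 153 probe sets that fell by at least 1.3 in all 4 pairs had a median NPA minus water difference of -0.07 at 12 h.

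The size of the change was then set side by side for water and NPA. Over the 53, the water change ran from 1.455 to 5.92 with a median of 2.125 (4.36-fold), and the NPA change from 1.37 to 5.41 with a median of 2.0 (4-fold). Over all 8404 probe sets both medians were 0.02. By pair, the median change of the 53 was 2.32 and 2.08 in water and 1.99 and 1.87 in NPA. Across the 53, water and NPA changes correlated with Pearson's r = 0.922, a description only, since the rule bounds both from below and all points share the same 8 arrays. The change was smaller in NPA for 43 (81.1%, against 54.4% of all probe sets) and larger for 10. In repeat 1 it was smaller for 42 (79.25%, against 55.5% of all). In repeat 2 it was smaller for 33 (62.3%, against 51.9%). The median NPA minus water difference of the change was -0.225 (-0.04 over all probe sets).

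**Figure D4:**
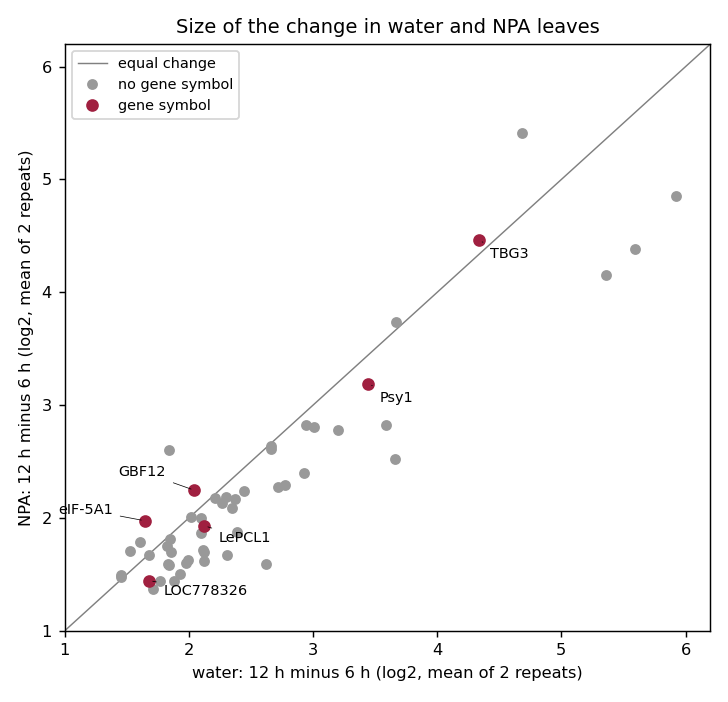
The 12 h minus 6 h change (log2, mean of the 2 repeats) in water on the x axis and in NPA on the y axis for each of the 53 probe sets, with the line of equal change. Points follow the line, 43 lie below it and 10 above it (54.4% of all probe sets changed less in NPA).

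limma found no difference in the size of the change for any of the 53. The count at an adjusted p under 0.05 was 0 of 53 (0% of all probe sets), and at an unadjusted p under 0.05 it was 2 (3.77%) against 13.4% of all, with a lowest adjusted p of 0.271 (0.106 with the repeat as a block, where 0 of 53 and 0% of all passed the adjusted threshold and 4 of 53, or 7.55%, against 22.2% of all, the unadjusted one). By repeat, the median difference of the change was -0.29 and -0.18. The change was smaller in NPA in both repeats for 28 of the 53, against 40.2% of all probe sets, and larger in both for 6, against 31.9%. The median turned above 0 when the first water array at 6 h (0.12) or the second NPA array at 6 h (0.055) was left out, and moved by over 1.5 times without any of the 8 arrays. The largest deficits in NPA were those of Les.2886.2.S1_at (5.59 in water, 4.385 in NPA, difference -1.205, SE 0.83, limma adjusted p = 0.591) and Les.2886.3.S1_at (5.36 and 4.155, difference -1.205, adjusted p = 0.574). The largest excess was that of Les.2700.1.S1_at (1.84 and 2.60, difference 0.76, SE 0.44, limma adjusted p = 0.509), followed by LesAffx.23119.1.A1_at (0.725, SE 0.83, limma adjusted p = 0.771). Les.2700.1.S1_at gave 9.85 and 9.0 in water at 6 h, 8.94 and 8.42 in NPA at 6 h, 11.43 and 11.10 in water at 12 h, and 11.25 and 11.31 in NPA at 12 h, so its excess came from lower NPA values at 6 h. Of the named genes, the difference of the change was -0.195 for LePCL1, 0.20 for GBF12, -0.255 for Psy1, 0.125 for TBG3, 0.33 for eIF-5A1 and -0.235 for LOC778326, with SE of 0.25 to 0.78 and limma adjusted p from 0.685 to 0.967. With the repeat as a block, their limma adjusted p ran from 0.537 (eIF-5A1) to 0.825 (Psy1).

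The 2 repeats of the experiment also differed in the level of these 53. Repeat 2 was higher than repeat 1 by a median of 0.63 in water at 6 h, 0.43 in NPA at 6 h, 0.27 in water at 12 h and 0.45 in NPA at 12 h, while the medians over all 8404 probe sets were 0.005, -0.03, -0.04 and -0.01. In these 4 groups 43, 42, 40 and 45 of the 53 were higher in repeat 2, against 50%, 44.9%, 42.7% and 48.5% of all probe sets. In all 4 groups at once 32 of the 53 were higher, against 17.8% of all probe sets, and 0 were lower, against 21.9% of all. Of the 153 strong falls, 14 were higher in repeat 2 in all 4 groups. What separated the repeats (day, hour of spraying or plants) is not given in the labels, and their part in the values was not tested.

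limma with repeat as the contrast was a test added after these values were seen. It took the water and NPA arrays of a time as the replicates of each repeat. Its p-values therefore measure how alike the repeat difference was in water and NPA, not the spread among repeats. It called 1 of the 53 higher in repeat 2 at 6 h (0.0238% of all probe sets) and 6 at 12 h (1.02%). At 6 h it was Les.2026.1.S1_at, higher by 2.1 (SE 0.096, limma adjusted p = 0.042), which gave 6.55 and 8.64 in water and 6.72 and 8.83 in NPA. At 12 h they were TBG3 (0.995, SE 0.12, limma adjusted p = 0.0453), Les.2886.1.A1_at (1.225, adjusted p = 0.0391), Les.2886.2.S1_at (1.435, adjusted p = 0.0227), Les.2026.1.S1_at (1.145, adjusted p = 0.0336), Les.2643.1.S1_at (0.67, adjusted p = 0.049) and Les.4711.1.S1_at (0.835, adjusted p = 0.0465). Each of these calls was lost when any 1 of the 8 arrays was left out. At an unadjusted p under 0.05, in either direction, there were 38 of 53 (71.7%) at 6 h against 19.4% of all probe sets, and 30 (56.6%) at 12 h against 27.1%. The direction was not shared by every member. Psy1 was lower in repeat 2 at 6 h (-0.88 in water, -0.76 in NPA) and higher at 12 h (0.45 and 0.66), and LePCL1 was higher at 6 h (1.16 and 0.81) with values of -0.01 and 0.29 at 12 h. Les.2886.1.A1_at had the pattern of Psy1, with -0.41 and -0.26 at 6 h and 1.09 and 1.36 at 12 h.

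**Figure D5:**
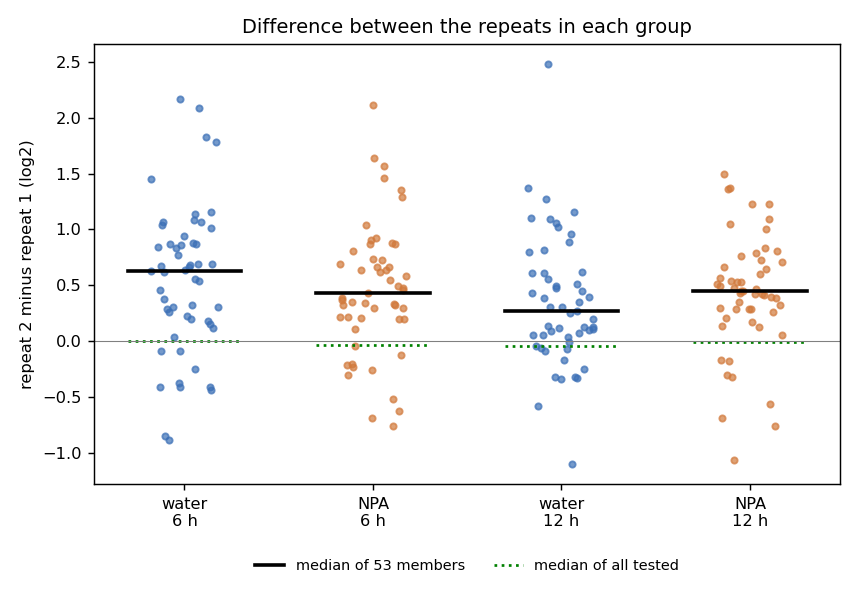
Repeat 2 minus repeat 1 (log2) in each of the 4 groups for the 53 probe sets, 1 point per probe set with the median drawn. Medians lie at 0.63, 0.43, 0.27 and 0.45, and 40 to 45 of the 53 points lie above 0 in each group (42.7% to 50% of all probe sets).

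Other genes of the pathways to which the named genes belong moved in both directions, described here by counts with no test of the lists. Over all 8404 probe sets, limma called 11.7% risen in water and 14.2% risen in NPA. These shares are the background for the rises in every list, for the fit without the block. With the repeat as a block, limma called 3144 of the 8404 probe sets in water and 3401 in NPA, in either direction. Counts from that fit therefore cannot be set against 11.7% or 14.2%. The share fallen is not given here, so the counts of falls stand without a background. Of 51 clock and light signalling symbols, 12 were measured, LePCL1 and GBF12 among them. Of the other 10, limma called 2 risen and 1 fallen in water (2 and 2 with the repeat as a block). In NPA it called 3 risen and 1 fallen (4 and 1 with the block). Median changes were -0.105 in water and 0.1475 in NPA (0.02 over all probe sets). COP1, a ubiquitin ligase that represses light responses, rose by 1.225 in water (SE 0.32, limma adjusted p = 0.0387) and by 1.735 in NPA (adjusted p = 0.0121). CIP1, named as a COP1-interacting protein, fell by 5.28 in water (limma adjusted p = 0.000323) and fell by 5.4 in NPA (adjusted p = 0.000283). The blue-light receptor gene Cry1b rose by 0.595 in water (limma adjusted p = 0.0238) and 0.58 in NPA (adjusted p = 0.0227), and CRY2 gave 0.04 in water (adjusted p = 0.839) and rose by 0.465 in NPA (adjusted p = 0.0337). The CRY2 call was lost in each of the 8 fits without 1 array (adjusted p up to 0.147). The COP1 call in water was lost in 6 of 8, without any water array or either NPA array at 6 h (up to 0.192), and in NPA in 2, without either NPA array at 6 h (up to 0.0615). The Cry1b call was lost without any water array in water (up to 0.121), and in NPA in 3 fits, all but the second 6 h array among the NPA arrays (up to 0.109). Without any 1 of the 4 water arrays the water rises went from 2 to 0, and without the first NPA array at 6 h the NPA rises went from 3 to 0, whereas the CIP1 calls held without each array.

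Of 46 carotenoid and abscisic acid symbols, 15 were measured. Besides Psy1, limma called 4 of 14 fallen and 0 risen in water (median -0.34), and 2 risen and 2 fallen in NPA (median 0.175). Zeaxanthin epoxidase (ZEP), which acts late in the pathway toward abscisic acid, fell by 4.855 in water (limma adjusted p = 0.000391) and fell by 4.28 in NPA (adjusted p = 0.000535), in the direction opposite to the Psy1 probe set among the 53, and both calls held without each array. DXS, which supplies isoprenoid precursors, fell by 1.18 in water (limma adjusted p = 0.00851) and fell by 1.045 in NPA (adjusted p = 0.0105). PDS, the phytoene desaturase that acts next after Psy1, fell by 0.73 in water (limma adjusted p = 0.0115) and differed by 0.15 in NPA (adjusted p = 0.416). The carotenoid cleavage gene CCD1A differed by -0.005 in water (limma adjusted p = 0.985) and rose by 0.84 in NPA (adjusted p = 0.0101). The DXS calls were lost without the first water array at 6 h (adjusted p = 0.0632) and without the second NPA array at 6 h (0.0531), the PDS call in 3 of 8 fits and the CCD1A call in 2. Leaving out the first water array at 6 h cut the water falls from 4 to 1. Leaving out the first NPA array at 6 h or the second at 12 h cut the NPA rises from 2 to 0, and leaving out the second NPA array at 6 h cut the NPA falls to 1. With the repeat as a block the counts were 5 falls in water, and 4 rises and 3 falls in NPA.

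Of 69 cell wall enzyme symbols, 35 were measured. Besides TBG3, limma called 2 of 34 risen and 5 fallen in water (median 0.0475), and 3 risen and 4 fallen in NPA (median 0.0775). XTH1, a xyloglucan-remodelling enzyme, fell by 1.585 in water (limma adjusted p = 0.00594) and fell by 1.505 in NPA (adjusted p = 0.00619). EXPA4, an expansin that loosens walls, fell by 0.795 in water (limma adjusted p = 0.0208) and fell by 0.86 in NPA (adjusted p = 0.0139). The EXPA4 calls were lost in 3 of 8 fits in water and 2 in NPA. Without the first water array at 6 h the water counts were 0 risen and 0 fallen. The water rises were also 0 without the second water array at 6 h or at 12 h, the NPA rises were 0 without the second NPA array at 12 h, and the NPA falls were 2 without the first NPA array at 6 h. With the repeat as a block the water counts were 3 risen and 6 fallen, and the NPA counts 9 risen and 7 fallen.

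Further lists of leaf processes held none of the 53. The background for their rises without the block is again 11.7% of all probe sets in water and 14.2% in NPA. Their falls and their block counts again have no background of this kind. limma called 0 risen and 3 fallen of 8 photosynthesis genes in each treatment. Of 18 carbon metabolism genes 2 had risen and 8 fallen in water (3 and 10 with the repeat as a block). In NPA 3 had risen and 7 fallen (4 and 7 with the block). Without the first water array at 6 h the water counts were 0 and 4, the water falls were also 4 without the second water array at 12 h, and without the first NPA array at 6 h the NPA falls were 4. Of 18 ethylene genes 7 had risen in water and 0 fallen, a count that was 0 without the first water array at 6 h or at 12 h, and 1 had risen and 1 fallen in NPA. The NPA rise was lost without any 1 of the 4 NPA arrays, and the NPA fall without either at 6 h or the second at 12 h. With the repeat as a block, the ethylene counts were 9 risen in water, and 2 risen and 2 fallen in NPA. Of 15 ethylene response factor genes 2 had risen in water and 1 in NPA, and 0 had fallen. With the repeat as a block 6 had risen in water and 3 in NPA, and 1 had fallen in each. The water rises were 0 without the first water array at 6 h, and the NPA rise was 0 without the first NPA array at 6 h or at 12 h.

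Membership near the threshold was a matter of hundredths. Judged by the lowest of the 4 changes, the nearest probe sets inside were LesAffx.70234.1.S1_at at 1.3, Les.827.1.S1_at at 1.31 and Les.810.1.S1_at at 1.33. The nearest outside were LesAffx.68547.1.S1_at and LesAffx.70520.2.S1_at at 1.29, and Les.2302.1.A1_at and Les.416.1.A1_at at 1.26. In single pairs many more passed 1.3, with 225 and 220 in water repeats 1 and 2 and 184 and 260 in NPA repeats 1 and 2. Exactly 3 pairs were passed by 43 probe sets, 2 by 130 and 1 by 288.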

How the data were processed

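Total RNA of 8 leaf pools was hybridised to 1-colour Affymetrix Tomato Genome arrays. The authors deposited 1 table of 8488 rows with log2 values rounded to 2 decimals, made with RMA per the submitters' processing notes; for the software version, background step and any filter, the sources used here give nothing. RMA quantile-normalizes arrays, so shifts common to most probe sets are not visible. The 84 control rows were left out and 8404 tested. Symbols came from the platform annotation (753 probe sets with 1, 7651 without); 5 of the 6 named members were found in the RefSeq table, and LePCL1 keeps the platform's name. The promoter motif description was not run, as no sequences were used here.

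limma 3.58.1 in R 4.3.3 fitted the 4 group means over all 8 arrays, leaving 4 residual degrees of freedom (prior 2.55), with two-sided Benjamini-Hochberg adjusted p over all tested probe sets and a threshold of 0.05. The repeat contrast came from a separate fit, with a repeat difference at each time added to the group means. That fit left fewer residual degrees of freedom. The group-mean test was checked on simulated data. Deviations from the group means ran together in arrays of 1 repeat (correlations of 0.316 to 0.596 over the 6 pairs of groups), and per the labels the complete set was repeated, so the repeat number was also tried as a block. Alternatives were quantile normalization, median centring, only probe sets above the median level, an intensity trend, array weights, single times, other thresholds and each array left out.

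The members and gene lists were chosen with earlier results of these data known. Named were all members with a symbol, members without one that were most extreme in change or in its NPA minus water difference, probe sets beside the threshold, and up to 4 genes per list with the smallest p. Partner probe sets and family members were added after their values were seen.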

Additional observations from a re-analysis of the deposited data

Results flagged for a closer look

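Les.2886.1.A1_at drew attention because NPA was above water in both repeats at 6 h (by 0.16 and 0.31) and below water in both at 12 h (by -0.97 and -0.70), so that the NPA minus water difference moved by -1.07 between the times. Les.2886.2.S1_at did the same, with 0.07 and 0.25 at 6 h, -1.11 and -0.98 at 12 h, and a move of -1.205. limma's interaction test passed neither (adjusted p = 0.583 and 0.591), and after quantile normalization the 6 h differences were -0.041 and -0.288 in place of 0.235 and 0.16. Both probe sets belong to 1 identifier cluster and are not independent. Their 6 h signals, from 3.82 to 4.98, lie at the dim end of the array. Other strong rises crossed in the same way. Les.2110.1.A1_at gave 0.51 and 0.6 at 6 h and -0.56 and -0.39 at 12 h. Its move of -1.03 (SE 0.32) had the lowest limma adjusted p of all members (0.2715). LesAffx.12514.1.S1_at gave 0.02 and 0.2 at 6 h and -0.91 and -1.15 at 12 h. Its move was -1.14 (limma adjusted p = 0.366), so neither passed.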

How the results depend on the processing

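The number of probe sets that met the rule was 53. It was 23 among probe sets above the median level, 110 at a threshold of 1, 29 at a threshold of 1.6 and 27 when all 8 pairings of arrays within a treatment had to pass. It was 57 after quantile normalization, 52 after median centring, 76 when the mean change was used, and 57 to 69 with 1 array left out. No NPA minus water contrast called any of the 53 in any alternative run, the repeat block included (0 at 6 h, 12 h, averaged and for the difference of the change), and the block changed no call among the named members. Over 44 results of 11 named members, 618 values under alternatives stayed short of the threshold; 47 changed sign, 44 of them with 1 array left out, and the largest of these values was 0.725 in size. The median difference of the change (-0.225) was -0.139 after quantile normalization, -0.11 with only bright probe sets and -0.495 to 0.12 with 1 array left out. The median NPA minus water difference at 6 h (0.03) was -0.1125 and -0.09 under the first 2 of these settings and -0.31 to 0.23 with 1 array left out, and that at 12 h (-0.21) was -0.45 to -0.02. The cause was not tested. Between repeats, the limma count at 6 h (1 of 53, against 0.0238% of all probe sets) was 2 after quantile normalization and 2 after centring. It was 8 with only bright probe sets and 12 at an adjusted p under 0.1. The count at 12 h (6 of 53, against 1.02% of all) was 10 with only bright probe sets and 23 at an adjusted p under 0.1. The shares of all probe sets under these other settings are not given here, so nothing is read from these counts. Among the 23 bright members, 15 were below water in both repeats at 12 h, 11 changed less in NPA in both repeats and 15 were higher in repeat 2 in all 4 groups. The shares among all bright probe sets are not given here, so whether these patterns held among bright members was not tested. With 2 pools a group, small treatment effects may be missed, and signals near 3 to 5 lie at the dim end of the array, where no detection calls were used.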

Other observations

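Among the 43 probe sets that passed 1.3 in exactly 3 of the 4 pairs, 5 carried a symbol. COP1 missed only in water repeat 2, with 1.06 there and 1.39, 1.3 and 2.17 in water repeat 1 and NPA repeats 1 and 2. THOM1, a homeobox gene, missed only in NPA repeat 1, at 1.00. PDH, the 14-3-3 protein gene tft10 and LOC543605 missed only in NPA repeat 2, at 0.94, 1.19 and 1.13. Over all 43, the pair that fell short was water repeat 1 for 4, water repeat 2 for 16, NPA repeat 1 for 10 and NPA repeat 2 for 13. These values chose the probe sets and carry no test.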
